A study of Mus musculus with 2 samples.

Results

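T cells of the pressure-overloaded mouse heart were taken from 2 libraries of cardiac leukocytes by their CD3 transcripts, and they numbered 347 of 12407 kept cells. A barcode was kept with at least 500 UMIs (unique molecular identifiers, each 1 counted transcript), at least 200 genes and at most 10% of UMIs from mitochondrial genes. It counted as a T cell when Cd3d, Cd3e and Cd3g together had 2 or more UMIs, Cd79a and Cd79b, which encode the B cell receptor's signalling chains, had 0, and the complement genes C1qa, C1qb and C1qc, made by macrophages, took under 0.3% of its UMIs. The LOY library gave 86 T cells and the control library 261. The 2 groups were mice that received LOY bone marrow (loss of the Y chromosome in the blood-forming cells, per the title) and mice that received control bone marrow. Both groups underwent TAC, a surgical constriction of the aorta that overloads the left ventricle with pressure, so no unoperated heart is part of the comparison. Left ventricles were digested with enzymes, viable CD45+ RFP+ cells were sorted as leukocytes derived from the transplant, and 3 mice per group were pooled into 1 library. No source used here states the strain, sex, age, time after surgery or the method of Y loss. Host leukocytes that lack RFP were left out by the sort.

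T cells recognise peptides through a receptor of paired variable chains that signals through the CD3 subunits. Cells with the coreceptor CD4 mostly act as helpers or regulators, and cells with CD8 mostly as killers. Naive and central memory T cells recirculate through lymphoid organs with homing molecules such as those encoded by Ccr7 and S1pr1, whereas effector cells that enter tissues make chemokines such as CCL5 and the contents of cytotoxic granules. In mouse hearts under pressure overload, T cells are known to infiltrate the myocardium.

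Each group was 1 library, so no difference below has a replicate check and no test was run. All intervals are 95% intervals and cover counting error only. T cells were shallower in the LOY library, with a median of 1869.5 UMIs per cell (lowest 836, highest 10566) against 3742 (1246 to 24058) in the control library. Their transcripts summed to 225215 UMIs in LOY and 1144352 in control, so 1 UMI equalled 4.44 CPM (a gene's share of all UMIs of the library's T cells, on the usual CPM scale) in LOY and 0.874 CPM in control. The median share of mitochondrial UMIs was 3.17% in LOY and 4.34% in control T cells. No cell barcode of a T cell was shared by the libraries, although 31 barcodes occurred in both among all barcodes. The RFP sequence had 0 UMIs in T cells of both libraries.

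The labels were checked first on the Y chromosome. The 4 Y-linked genes Ddx3y, Eif2s3y, Kdm5d and Uty together had 1 UMI in the 86 LOY T cells and 162 UMIs in the 261 control T cells, a LOY level of 0.0314 times the control level (exact conditional interval 0.000789 to 0.177). The single LOY transcript came from Eif2s3y, a translation initiation factor subunit (chromosome Y, 1010543 to 1028847). Ddx3y, an RNA helicase (chromosome Y, 1260771 to 1286629), had 0 UMIs in LOY, which allows up to 13.3 CPM, and 55 UMIs (48.1 CPM) in control. With all UMIs, 1.16% of LOY and 40.6% of control T cells had a Y-linked UMI. With each cell thinned at random to 500 UMIs these shares were 0% of 86 LOY T cells, which allows up to 3.49% (a limit set at 3 cells wherever a count was 0), and 5.75% of control T cells. Their X-linked partners Ddx3x, Eif2s3x, Kdm5c and Kdm6a together stood at 0.851 times the control level (0.574 to 1.23), an interval that includes 1. Coordinates are of the mouse build mm10 with the GENCODE M21 annotation.

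The cells chosen by CD3 also carried T cell receptor transcripts, which the choice did not use. A UMI of Trbc1 or Trbc2, the constant regions of the receptor's beta chain, was present in 89.5% of LOY (81.1% to 95.1%) and 97.7% of control T cells (95.1% to 99.2%). Trac, the constant region of the alpha chain, was present in 50% of LOY and 63.6% of control T cells. In B cells, which should lack these genes, Trac, Trbc1 or Trbc2 was seen in 0.877% of 228 LOY and 0.623% of 803 control cells, at median depths of 896.5 and 2053 UMIs. At 500 UMIs per cell, Trbc1 or Trbc2 was seen in 57.0% of LOY and 62.1% of control T cells. Of the defining B cell markers, Cd79a and Cd79b were 0 by the rule, and Ms4a1 was 0 in both libraries. NK cell markers (Ncr1, Klrb1c or Klra8) were seen in 7 LOY and 30 control T cells. The rule's threshold fell among closely spaced cells. In LOY, 17 cells had 1 CD3 UMI and lay just outside, 17 had 2 and 19 had 3. In control these numbers were 7, 10 and 14. The median CD3 sum was 4 in LOY and 9 in control T cells.

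T cells made up 1.59% of the 5415 kept LOY cells, with an exact interval from 1.27% to 1.96%. They made up 3.73% of the 6992 kept control cells, with an interval from 3.30% to 4.20%. Intervals of shares are Clopper-Pearson intervals. Other lymphocytes were also scarcer in the LOY library. B cells, taken by 2 or more UMIs of Cd79a and Cd79b without CD3, were 4.21% of LOY and 11.5% of control cells, and NK cells were 0.628% and 2.06%. As a share of T, B and NK cells together, T cells were 24.7% in LOY and 21.6% in control. Macrophages with high C1q made up 78.9% of LOY and 70.5% of control cells. A lower share of T cells and a higher yield of macrophages cannot be told apart here. T cells left out for a B cell gene numbered 4 in LOY and 23 in control, and those left out for C1q 8 and 34.

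**Figure D1:**
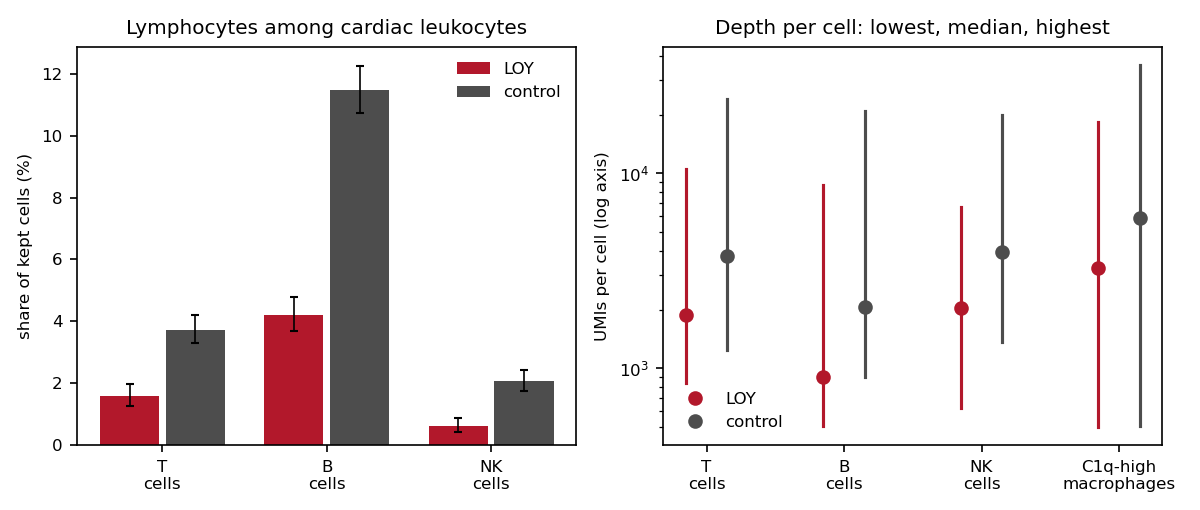
Left, share of kept cells (%) that were T, B or NK cells in the LOY and control libraries, with exact 95% intervals that cover counting error only. Right, UMIs per cell on a log axis, with the line from the lowest to the highest cell and the point at the median. All 3 lymphocyte shares were lower in LOY, and T cells had a median of 1869.5 UMIs in LOY and 3742 in control.

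The subunits of the receptor did not all stand at the same level in the 2 libraries. Cd3d, Cd3e and Cd3g lie together on chromosome 9 (Cd3g 44969572 to 44980431, Cd3d 44981786 to 44987339, Cd3e 44998740 to 45009627) and encode the signalling subunits used by the rule, so their values are a description. Cd3d had 937 CPM in LOY and 888 CPM in control T cells, and Cd3e had 386 and 339 CPM. Cd3g had 360 CPM in LOY and 1041 CPM in control. It was seen in 67.4% of LOY and 96.2% of control T cells, while Cd3d was seen in 96.5% and 92.3%. Cd247, which encodes the zeta chain and is no part of the rule, had 62.2 CPM in LOY and 149 CPM in control, 0.416 times the control level (0.223 to 0.717). Trac stood at 404 and 337 CPM, Trbc2 at 1230 and 1243 CPM, and Trbc1 at 608 and 863 CPM. On the log2 scale with 50 CPM added, Cd3g and Cd247 were past 1.5-fold lower in LOY, and the other 5 genes of the complex, Trbc1 among them, were within 1.5-fold. Trbc1 and Trbc2 are near-identical, so reads near their shared sequence may have been split between them or dropped.

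CD8 transcripts were the more frequent coreceptor in both libraries, and Cd4 was rarely detected. With each cell thinned to 500 UMIs, so that cells of different depth can be compared, 2.33% of LOY (2 cells, 0.283% to 8.15%) and 3.07% of control T cells (8 cells, 1.33% to 5.95%) had Cd4 only. Cd8a or Cd8b1 without Cd4 was found in 11.6% of LOY (5.72% to 20.3%) and 13.0% of control T cells (9.19% to 17.7%). Both pairs of intervals overlap. With all UMIs the CD4-only share was 5.81% in LOY (5 cells) and 13.0% in control (34 cells), and the CD8-only share was 36% (31 cells) and 33.0% (86 cells). No coreceptor transcript was seen in 50 LOY and 140 control T cells, and 1 control cell had both. In B cells the thinned CD4-only share was 0% in LOY, which allows up to 1.32%, and 0.249% in control. A cell without a coreceptor UMI is not shown to lack the coreceptor, since Cd4 gave 6 UMIs in 5 LOY cells and 49 UMIs in 35 control cells.

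State genes divided the T cells in each library, with fewer naive transcripts in LOY. A cell counted as naive only when it had a UMI of at least 1 of 3 naive genes, among them Ccr7 and Lef1, and none of Ccl5, Nkg7, Gzma, Gzmb, Gzmk, Ifng and Cxcr6, and as effector only in the opposite case. These gates are ranges of transcript detection, not cell types. At 500 UMIs, 11.6% of LOY (10 of 86, 5.72% to 20.3%) and 20.7% of control T cells (54 of 261, 15.9% to 26.1%) were naive only, and the intervals overlap. Effector-only cells were 44.2% of LOY (33.5% to 55.3%) and 39.5% of control T cells (33.5% to 45.7%). With all UMIs the naive-only share was 14% in LOY (7.42% to 23.1%) and 31.4% in control (25.8% to 37.4%), and at 1000 UMIs, with 8 shallower LOY cells left out, it was 8.97% (3.68% to 17.6%) and 29.1% (23.7% to 35%). In the last 2 settings the intervals do not overlap. As a background, macrophages thinned to 500 UMIs had a UMI of a naive gene in 0.585% of LOY and 0.385% of control cells, at median depths of 3252 and 5881 UMIs, and they had a UMI of an effector gene, mostly Ccl5, in 4.51% and 1.52%. B cells had a UMI of an effector gene in 0.439% of LOY and 0.623% of control cells. Naive genes were not confined to T cells. At 500 UMIs a UMI of a naive gene was seen in 27.6% of 228 LOY B cells and 17.4% of 86 LOY T cells. Lef1 was seen in 0 of these B cells.

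**Figure D2:**
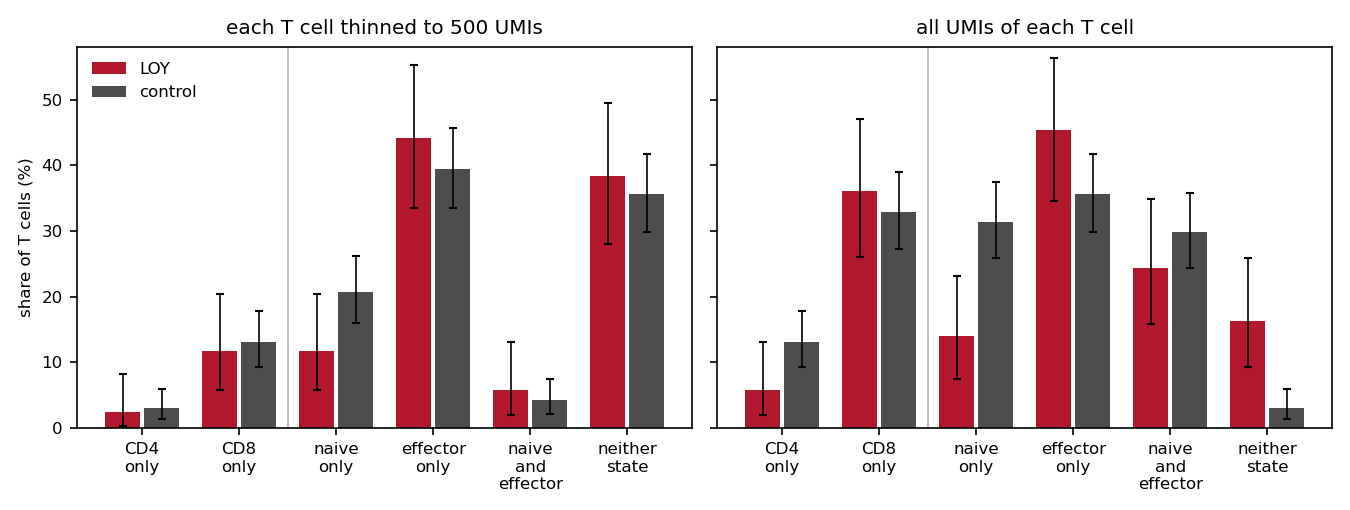
Share of T cells (%) by coreceptor and by state genes in the LOY and control libraries, with each cell thinned to 500 UMIs (left) and with all UMIs (right); error bars are exact 95% intervals for counting error only. The naive-only share was lower in LOY at both depths, 11.6% against 20.7% when thinned and 14% against 31.4% with all UMIs. The naive-only intervals overlap when thinned and do not overlap with all UMIs, where LOY cells were shallower. The effector-only intervals overlap at both depths.

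The 2 coreceptor classes of the control library differed in state. Among CD4-only cells, 1 of 5 in LOY and 22 of 34 in control (64.7%, 46.5% to 80.3%) were naive only. Among CD8-only cells, 12.9% of LOY (4 of 31, 3.63% to 29.8%) and 18.6% of control cells (16 of 86, 11% to 28.4%) were naive only. Naive and effector genes were seen together in 41.9% of LOY (13 of 31) and 57.0% of control CD8-only cells (49 of 86). These classes use all UMIs, at median depths of 2853 UMIs in LOY and 3962.5 in control CD8-only cells. Over all T cells, both were seen together in 24.4% of LOY and 29.9% of control cells with all UMIs. At 500 UMIs these shares were 5.81% and 4.21%. Cells without a coreceptor UMI were effector only in 46.0% of LOY (31.8% to 60.7%) and 47.9% of control cells (39.4% to 56.5%). The 5 LOY CD4-only cells had 21127 CPM of macrophage transcripts, against 2144 CPM in the 34 control ones, and Cd4 was detected in 0.468% of LOY and 0.831% of control macrophages. Their part in the CD4-only count was not tested.

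**Figure D3:**
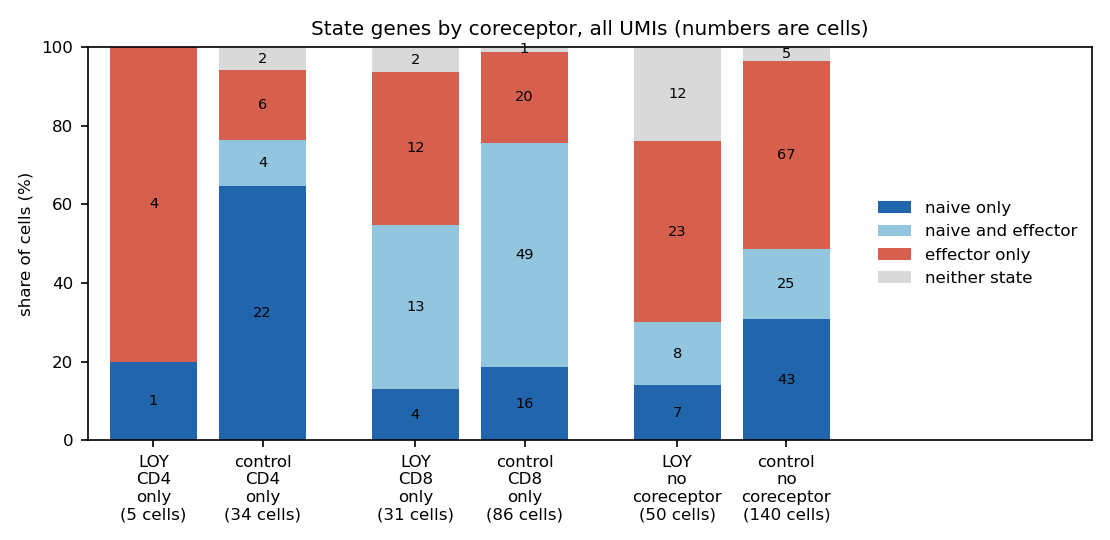
State genes by coreceptor with all UMIs of each T cell, LOY left of control in each pair; bars are shares (%) of the cells in that class and the numbers are cells. Naive-only cells were 1 of 5 CD4-only cells in LOY and 22 of 34 in control, and the CD8-only classes held naive and effector genes together in 13 of 31 LOY and 49 of 86 control cells.

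Transcripts of specialised T cells were few. Foxp3, the regulatory T cell factor, had 0 UMIs in 86 LOY T cells, which allows a share of up to 3.49% of cells with a UMI, and was seen in 7 of 261 control T cells (2.68%, 1.08% to 5.45%), all of them without a coreceptor UMI. At 500 UMIs it was seen in 0 LOY cells and 1 control cell. Trdc, the constant region of the delta chain of gamma-delta T cells, was seen in 2 LOY (2.33%, 0.283% to 8.15%) and 16 control T cells (6.13%, 3.54% to 9.76%). At 500 UMIs the Trdc counts were 2 and 8 cells, and B cells had none with all UMIs. Of the 16 control cells, 14 had no coreceptor UMI and 14 also had Trbc2 UMIs. Il17a, the cytokine of type 17 cells, was seen in 2 LOY and 4 control T cells. Il4, Il5, Il13 and Il17f had 0 UMIs in both libraries. Ifng, the type 1 cytokine, had 13.3 CPM in LOY (3 UMIs) and 73.4 CPM in control, and its factor Tbx21 had 8.88 and 27.1 CPM. Tnfrsf4, a costimulatory receptor of activated and regulatory cells, had 88.8 CPM in LOY and 33.2 CPM in control, and was seen in 11.6% and 3.07% of T cells.

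Ccl5, Nkg7, Ctsw and Klrd1 were among the genes with the highest ratio of CD8-only over CD4-only cells in the control library, and Ccl1, Cd4, Ifitm1, Cst3, Tubb2a, Ly6a, Irf8 and Cited2 had the lowest. Genes were named as the 8 highest and 8 lowest ratios in the control library, where 175 of 3216 measured genes (5.44%) were past 1.5-fold higher in CD8-only and 156 (4.85%) lower, and Cd8a, Cd8b1 and Cd4 defined the classes. In LOY, with only 5 CD4-only cells, 27.3% of 715 measured genes were higher and 17.6% lower. Ccl5, a chemokine of effector cells, had 2612 CPM in CD8-only and 1625 CPM in CD4-only cells of LOY, against 3735 and 315 CPM in control. Nkg7, a granule protein, had 1355 and 174 CPM in LOY, against 1022 and 196 CPM in control. Ctsw, a protease of cytotoxic lymphocytes, had 386 and 0 CPM in LOY and 329 and 28.0 CPM in control, and Klrd1, which encodes the receptor CD94, had 208 and 58.0 CPM in LOY and 257 and 14 CPM in control. Ly6c2, a surface protein of memory CD8 cells and monocytes, stood at 1138 and 1393 CPM in LOY but at 757 and 133 CPM in control. The LOY values for CD4-only cells come from 5 cells and 17229 UMIs. On the low side, Cst3, a protease inhibitor abundant in myeloid cells, had 554 CPM in CD8-only and 2322 CPM in CD4-only cells of LOY, and 423 and 1387 CPM in control. Ccl1 led that side in control with 158 UMIs, all of them in 1 of the 34 CD4-only cells. Of the same 34 cells, Ifitm1 and Irf8 were each seen in 2, Cst3 in 7 and Tubb2a in 8. Ly6a and Cited2 were each seen in 24. Ly6a, a surface protein inducible by interferon, had 910 and 1161 CPM in LOY and 143 and 448 CPM in control.

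Effector-only cells differed from naive-only cells of the same library in many genes beyond those of the gates. In control, 801 of 4051 measured genes (19.8%) were past 1.5-fold higher in the effector-only cells and 208 (5.13%) lower, and in LOY 27.4% of 749 were higher and 13.1% lower. Cells were split by values of the same transcriptomes, with all UMIs, so these values are a description. The median depth of naive-only cells was 1802.5 UMIs in LOY and 3118 in control. S100a6, a calcium-binding protein of activated cells, had 2601 CPM in effector-only and 956 CPM in naive-only cells of LOY, and 2686 and 70.7 CPM in control. S100a4, of the same family, had 1862 and 217 CPM in LOY and 2385 and 95.5 CPM in control. Lgals1, a galactose-binding lectin, had 2507 and 1217 CPM in LOY and 1684 and 88.4 CPM in control. The naive-only values of LOY came from few cells. S100a6 was seen in 4 of 12 LOY and 4 of 82 control naive-only cells, and Lgals1 in 3 of 12 and 12 of 82. In the same naive-only cells macrophage transcripts summed to 8216 CPM in LOY and 3010 CPM in control. NK cell transcripts, a list that includes Tyrobp, which macrophages express as well, summed to 2739 and 361 CPM. Ncr1 and Klrb1c, which mark NK cells, had 0 UMIs in the naive-only cells of both libraries. The part of both lists in these values was not tested. Tmem176a, a membrane protein, had 1092 and 43.5 CPM in LOY and 863 and 35.4 CPM in control. Xcl1, a chemokine that attracts dendritic cells, had 104 and 0 CPM in LOY and 629 and 0 CPM in control. Among genes lower in effector-only cells, the chromatin organiser Satb1 had 104 and 522 CPM in LOY and 64.2 and 640 CPM in control, and Slamf6, a receptor of memory precursors, had 41.6 and 174 CPM in LOY and 7.70 and 198 CPM in control.

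Summed over all T cells, 6221 genes had at least 20 UMIs over both libraries. On the log2 scale with 50 CPM added to both libraries' values, a scale that shrinks the differences of weakly expressed genes, 311 genes (5.0%) were past 1.5-fold higher in LOY and 338 (5.43%) past 1.5-fold lower, and the median over all measured genes was -0.03. A gene measured only in LOY needs 88.8 CPM to reach 20 UMIs and one measured only in control 17.5 CPM. Of the genes named below as the 10 highest, several were transcripts of myeloid cells. Chil3, a lectin of activated myeloid cells, had 142 CPM in LOY and 5.24 CPM in control, but was seen in 2 LOY cells, 1 of which held 87.5% of its UMIs. Cd74, the invariant chain of MHC class II, had 6194 CPM in LOY and 2179 CPM in control, although it was seen in fewer LOY cells, 20.9% against 44.4%. Ifitm3, an antiviral membrane protein abundant in macrophages, had 1527 and 426 CPM, and Wfdc17, a protein of myeloid cells, 262 and 51.6 CPM. T cells in which 16 genes of antigen-presenting myeloid cells took over 1% of UMIs were 13 in LOY (15.1%) and 13 in control (4.98%). Without these cells, in an alternative chosen after seeing the data, 5.45% of 5509 measured genes were past 1.5-fold higher and 6.72% lower. The log2 ratio of Cd74 was 0.10 in place of 1.49, that of Wfdc17 was 0.32 in place of 1.62, that of Ifitm3 was 1.26 in place of 1.73, and Chil3 had 0 CPM in both libraries.

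The other 6 genes highest in LOY had log2 ratios between 1.23 (Stmn1) and 1.94 (Ly6a) without the myeloid-transcript cells. Ly6a (chromosome 15, 74994877 to 74998031) had 1030 CPM in LOY and 297 CPM in control, 3.47 times the control level (2.92 to 4.11), and was seen in 65.1% and 36.4% of T cells. Its ratio on the log2 scale was 1.64 with all T cells and 1.94 without the 13 and 13 cells. Ctla2a, an inhibitor of cysteine proteases in T cells (chromosome 13, 60934155 to 60936625), had 999 and 353 CPM and log2 ratios of 1.38 and 1.69. Actb, the cytoskeletal actin, had 21229 CPM in LOY and 7788 CPM in control, and was seen in every T cell. Cd52, a surface glycoprotein of lymphocytes, had 5266 and 1958 CPM, and Ifi27l2a, an interferon-inducible gene, 1754 and 641 CPM. Stmn1, a regulator of microtubules in dividing cells, had 408 and 107 CPM. Ly6a and Ctla2a belong to families of similar genes, so their reads may be shared with relatives.

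Genes lower in LOY included regulators of quiescence and of the cytoskeleton. Btg2, an antiproliferative gene induced by many stimuli (chromosome 1, 134075170 to 134079120), had 199.8 CPM in LOY and 944 CPM in control, 0.212 times the control level (0.153 to 0.285), and was seen in 37.2% of LOY and 89.7% of control T cells. Klf2, a factor that maintains T cell quiescence and homing (chromosome 8, 72319033 to 72321656), had 319.7 and 918 CPM and was seen in 43.0% and 72.8%. Pfn1, the actin-binding protein profilin, had 515 and 1592 CPM. Cd48, an adhesion ligand of the SLAM family, had 71.0 and 249.9 CPM and was seen in 11.6% and 57.9%. Rgcc, a regulator of the cell cycle, had 40.0 and 180.0 CPM, Gnb2, a G protein subunit, 71.0 and 249.9 CPM, and Bcl2a1b, a survival gene with near-identical copies, 57.7 and 197 CPM. Ccl1, a chemokine of activated T cells, had 8.88 and 139 CPM, and 1 control cell held 99.4% of its control UMIs. Xcl1 had 79.9 and 254 CPM.

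Many of these differences were also present in other cells of the same libraries. Past 1.5-fold were 1.61% of measured genes higher and 5.31% lower in B cells, 7.23% and 15.8% in NK cells, and 1.56% and 1.5% in C1q-high macrophages. The log2 ratio of Btg2 was -1.99 in T cells, -1.78 in B cells, -2.94 in NK cells and -2.50 in macrophages. For Pfn1 the 4 values were -1.54, -1.97, -1.88 and -1.73, for Klf2 -1.39, -1.32, -2.45 and -2.25, and for Cd52 1.40, 1.23, 1.30 and 1.24. Cell types of one library share its preparation and sequencing, and the part of the library in these ratios was not tested. Rgcc had -1.35 in T cells and -0.01, -0.40 and -0.07 in B, NK and macrophage cells, where it was scarce, at or below 31.5 CPM in every one of those cell groups. Ctla2a had 1.38 in T cells, 0.10 in B cells, 0.75 in NK cells and 0.69 in macrophages. Stmn1 had 1.54 in T cells, 1.58 in NK cells and 1.27 in macrophages, but -0.10 in B cells. Differences between cell types were not tested.

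**Figure D4:**
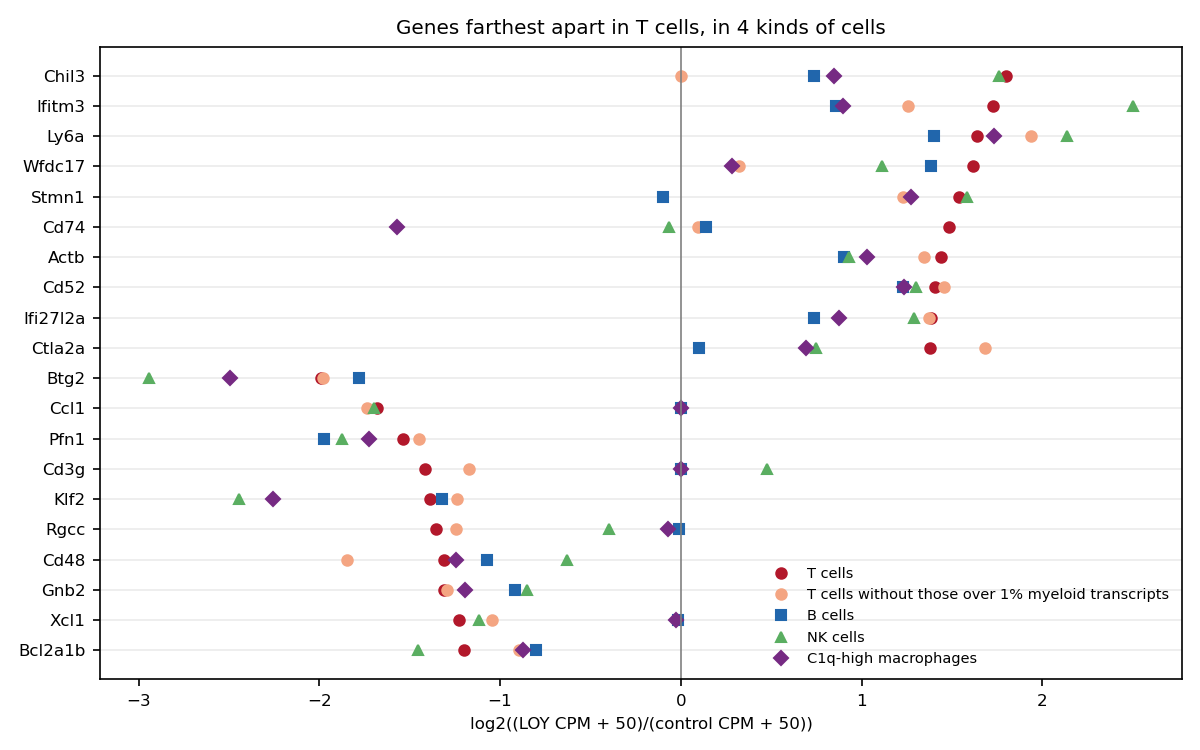
Log2((LOY CPM + 50)/(control CPM + 50)) of the 10 highest and 10 lowest named genes in T cells, in T cells without those over 1% myeloid transcripts, and in B cells, NK cells and C1q-high macrophages of the same libraries. Btg2, Pfn1, Klf2 and Cd48 lay left of 0 and Ly6a, Actb and Cd52 right of 0 in every cell group, while Cd74 moved to 0.10 without the myeloid-transcript cells.

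The gene list of naive and central memory T cells was lower in LOY. Its 16 genes summed to 2242 CPM in LOY and 3860 CPM in control T cells, a ratio of 0.581 (exact conditional interval 0.529 to 0.637). Of the 16, 8 were past 1.5-fold lower and 1 higher, and the median log2 ratio was -0.58 beside -0.03 over all measured genes. S1pr1, the receptor with which T cells leave tissues and lymph nodes, had 40.0 CPM in LOY and 123 CPM in control. Lef1, a factor of naive T cells, had 124 and 278 CPM, Tcf7, its partner factor, 142 and 267 CPM, and Ccr7, the lymph node homing receptor, 97.7 and 223 CPM. Il7r, the receptor for the survival cytokine IL-7, had 404 and 643 CPM. Dapl1 was the member higher in LOY, with 169 and 92.6 CPM. The share of a cell's UMIs from these genes had a median of 0.207% in LOY and 0.384% in control T cells. In CD8-only cells the ratio of the sum was 0.593 (0.518 to 0.676) and in cells without a coreceptor UMI 0.627 (0.543 to 0.721). In naive-only cells it was 0.722 (0.592 to 0.872). In effector-only cells it was 0.835 (0.686 to 1.01), an interval that includes 1, with 2 of 7 measured members past 1.5-fold lower and a median of 0.04. Without the myeloid-transcript cells it was 0.671 (0.604 to 0.743). The same list was also lower in the other cells of the LOY library. Its summed ratio was 0.503 in B cells, 0.543 in NK cells and 0.324 in macrophages. There 3 of 9, 6 of 10 and 2 of 14 measured members were past 1.5-fold lower. The part of the library in the T cell ratio was not tested.

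The list of homing receptors summed to a lower level in LOY, with a ratio of 0.784 (0.662 to 0.923). Of its 7 measured genes, 3 were past 1.5-fold lower and 0 higher, with a median of -0.57, and S1pr1 and Ccr7 of these 3 are also in the naive list. Cxcr4, the receptor of the stromal chemokine CXCL12, had 22.2 CPM in LOY and 84.8 CPM in control. Cxcr6, a receptor of tissue-resident T cells, had 111 and 189 CPM. Cxcr3, a receptor of inflammatory chemokines, had 97.7 CPM in LOY and 58.5 CPM in control, within 1.5-fold on the log2 scale with 50 CPM added. In other cells the summed ratio of this list was 0.437 in B cells and 0.780 in macrophages. In NK cells it was 0.843 (0.641 to 1.09), an interval that includes 1.

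The effector and cytotoxic list had the same summed level in both libraries within counting error. It summed to 5572 CPM in LOY and 5552 CPM in control, a ratio of 1.0 (0.944 to 1.07), and 1 of its 18 measured members was past 1.5-fold higher and 4 lower, beside 5.0% and 5.43% of all measured genes. Ccl5, which made up most of the sum, had 3077 and 2872 CPM, and Nkg7 had 1017 and 801 CPM. The lower members were Xcl1, Gzmb, Ifng and Klrk1. Gzmb, the granule protease granzyme B, had 62.2 CPM in LOY and 174 CPM in control, and Klrk1, the activating receptor NKG2D, 97.7 and 205 CPM. Eomes, a factor of cytotoxic memory cells, was the higher member with 48.8 and 12.2 CPM, from 11 and 14 UMIs. Within effector-only cells the summed ratio was 0.710 (0.656 to 0.769), and without the myeloid-transcript cells the ratio over all T cells was 1.20 (1.12 to 1.28).

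Genes of T cell signalling and adhesion summed to a higher level in LOY. Of 18 T cell signalling and adhesion genes, 2 were past 1.5-fold higher in LOY and 0 lower, the median log2 ratio was 0.23 and the ratio of the sum 1.21 (1.12 to 1.31), beside 5.0% of all measured genes higher and 5.43% lower. Within effector-only cells the ratio of the sum was 1.07 (0.949 to 1.21), an interval that includes 1. Sh2d2a, an adaptor of the receptor pathway, had 191 CPM in LOY and 57.7 CPM in control, and Cd6, a costimulatory receptor, 133 and 69.0 CPM. Of 21 measured genes of activation and tissue memory, 3 were higher and 2 lower, with a median of 0.07. The ratio of their sum was 1.29 (1.23 to 1.34) over all T cells and 3.33 (2.78 to 3.98) in naive-only cells, which were 12 in LOY and 82 in control. It was 0.938 (0.887 to 0.991) in effector-only cells, where 1 of 21 measured members was past 1.5-fold higher and 9 lower and the median was -0.18. Both classes used all UMIs, at median depths in naive-only cells of 1802.5 UMIs in LOY and 3118 in control. Macrophage transcripts stood at 2.73 times the control level in the naive-only and 3.62 times in the effector-only cells. Their part in these ratios was not tested. Lgals1 had 1914 CPM in LOY and 843 CPM in control and was seen in 73.3% and 52.9% of T cells, and Ly6c2 had 1119 and 549 CPM. Anxa1, a phospholipid-binding regulator of inflammation, had 22.2 and 77.8 CPM, and Itga1, a collagen-binding integrin subunit, 22.2 and 61.2 CPM.

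**Figure D5:**
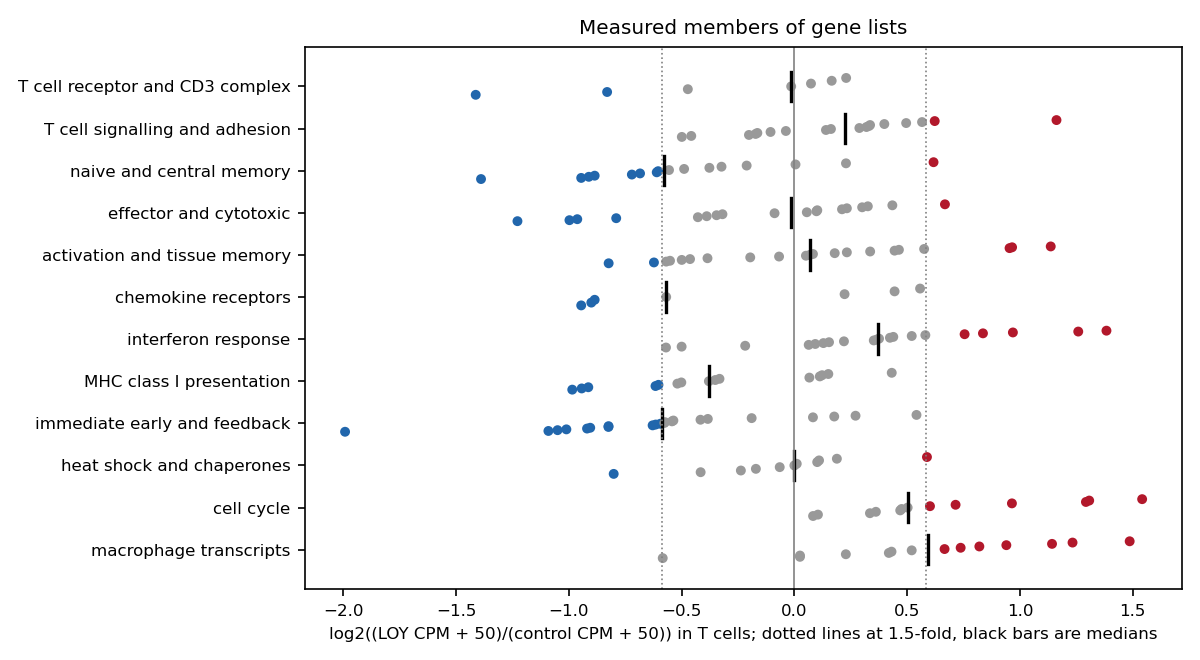
Log2((LOY CPM + 50)/(control CPM + 50)) in T cells of each measured member of 12 gene lists; black bars are list medians, dotted lines mark 1.5-fold, red and blue points lie beyond it. The naive and immediate early lists lie mostly left of 0 with medians of -0.58 and -0.59, and the interferon and cell cycle lists mostly right of it with medians of 0.37 and 0.50.

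Interferon response genes summed to a higher level in LOY T cells. The 20 genes summed to 4826 CPM in LOY and 2729 CPM in control, a ratio of 1.77 (1.65 to 1.90), with 5 members past 1.5-fold higher and 0 lower and a median of 0.37. The other 15 were within 1.5-fold. Ifi27l2a, given above, and Irf7, a factor that amplifies interferon production, with 297 CPM in LOY and 95.3 CPM in control, were the highest. Ifi27l2a alone gave 1754 CPM of the LOY sum and 641 CPM of the control sum. Isg15, a ubiquitin-like antiviral protein, had 506 and 234 CPM, and Ifit1, which binds viral RNA, 111 and 40.2 CPM. Igtp and Gbp4, GTPases induced by interferon-gamma, were the lowest at 35.5 and 31.1 CPM in LOY and 76.9 and 64.7 CPM in control. The ratio of the sum was 1.76 (1.6 to 1.92) without the myeloid-transcript cells. It was 5.89 (4.96 to 6.97) in naive-only cells, which were 12 in LOY and 82 in control, and 1.34 (1.20 to 1.5) in effector-only cells. These classes used all UMIs, at unequal depths. Naive-only cells had medians of 1802.5 UMIs in LOY and 3118 in control, and effector-only cells 1786 and 3836. In the effector-only cells 16 of 19 measured members were within 1.5-fold and the median was -0.13. The difference between these classes was not tested. Macrophage transcripts stood at 2.73 times the control level in the naive-only cells and 3.62 times in the effector-only cells. NK cell transcripts stood at 7.59 and 0.841 times, although Ncr1 and Klrb1c had 0 UMIs in the naive-only cells of both libraries. The part of both lists in these ratios was not tested. The 5 cells richest in interferon response transcripts held 29.1% of the list's UMIs in LOY and 21.2% in control. In B cells, NK cells and macrophages the ratio was 1.32, 1.46 and 1.47.

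Genes of MHC class I presentation, which interferon also induces, stood lower. Their 15 genes summed to 7020 CPM in LOY and 10625 CPM in control, a ratio of 0.661 (0.627 to 0.696), with 5 members past 1.5-fold lower and 0 higher. B2m, the light chain of class I molecules, had 1190 and 2286 CPM. H2-D1, a classical heavy chain whose reads may be shared with its near-identical relatives, had 1110 and 2246 CPM, and H2-T23, a non-classical one, 111 and 260 CPM. Psmb10, a subunit of the immunoproteasome, was the highest member with 329 and 231 CPM. The ratio was similar in the other cells, 0.643 in B cells, 0.636 in NK cells and 0.640 in macrophages.

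Promoter sequences are shown for 2 interferon genes that were higher in LOY and for B2m, which was lower, because all 3 hold the interferon-stimulated response element. The sequences are the 250 bases before the RefSeq start in GRCm38.p6, 5′ to 3′ on the gene's strand, with matches to the element, sought on both strands, in capitals. They are Isg15 (chr4:156200819-156201068, minus strand), Ifit1 (chr19:34640639-34640888, plus strand) and B2m (chr2:122147437-122147686, plus strand).
Isg15: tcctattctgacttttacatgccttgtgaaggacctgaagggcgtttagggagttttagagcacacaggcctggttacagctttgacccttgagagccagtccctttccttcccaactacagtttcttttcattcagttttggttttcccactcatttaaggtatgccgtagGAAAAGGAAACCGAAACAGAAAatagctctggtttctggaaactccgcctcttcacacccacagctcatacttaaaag
Ifit1: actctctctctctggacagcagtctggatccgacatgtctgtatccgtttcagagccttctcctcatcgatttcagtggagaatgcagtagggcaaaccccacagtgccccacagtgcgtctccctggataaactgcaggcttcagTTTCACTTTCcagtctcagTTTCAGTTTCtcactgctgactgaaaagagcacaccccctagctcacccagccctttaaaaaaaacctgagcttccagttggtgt
B2m: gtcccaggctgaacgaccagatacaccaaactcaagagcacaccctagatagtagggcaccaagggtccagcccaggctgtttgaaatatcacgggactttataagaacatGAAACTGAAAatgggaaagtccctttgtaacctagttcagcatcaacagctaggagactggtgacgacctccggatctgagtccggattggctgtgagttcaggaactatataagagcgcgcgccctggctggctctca
Isg15 held 3 overlapping matches, the first beginning 78 bases before the start, Ifit1 held 2 and B2m held 1. The element was found in 9 of the 13 interferon genes with a RefSeq promoter (69.2%), in 3 of 13 MHC class I genes (23.1%), in 0 of 13 naive genes and in 3.46% of 27025 genes in all. A match is a description of these letters and not a sign that the site was used. The interferon genes with the element did not all stand on one side in LOY T cells. Isg15, Ifit1 and Ifit3 were past 1.5-fold higher, with log2 ratios of 0.97, 0.84 and 0.75, and the others were within 1.5-fold, among them Igtp at -0.57 and Ifi206 at -0.22. Without the myeloid-transcript cells Isg15 had 0.58 and Ifit3 0.53, both within 1.5-fold. Of the MHC class I genes with the element, B2m and H2-T23 were past 1.5-fold lower at -0.91 and -0.94, and H2-T22 had -0.50.

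Immediate early and feedback genes, which are induced within minutes by activation or by handling of tissue, were lower in LOY T cells. The 22 genes summed to 5941 CPM in LOY and 10524 CPM in control, a ratio of 0.565 (0.533 to 0.597), with 11 members past 1.5-fold lower, 0 higher and a median of -0.59. Besides Btg2, Jund, a subunit of the factor AP-1, had 511 CPM in LOY and 1144 CPM in control, and Dusp1, a phosphatase that ends MAP kinase signalling, 160 and 384 CPM. Egr1 and Fosb, factors of the early response, were the highest members at 53.3 and 164 CPM in LOY and 21.0 and 128 CPM in control. Its summed ratio was 0.529 without the myeloid-transcript cells, 0.595 in B cells, 0.538 in NK cells and 0.407 in macrophages. Heat shock genes, which dissociation of tissue also induces, had a ratio of 0.987 (0.934 to 1.04), with 1 of 11 measured members past 1.5-fold higher (Hsph1, 107 and 54.2 CPM) and 1 lower (Dnajb1, 75.5 and 169 CPM).

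The promoters of Btg2 and Dusp1 are shown because both genes were lower in LOY and both hold the full cAMP response element. The 250 bases before the RefSeq start (GRCm38.p6) are on the minus strand, Btg2 at chr1:134079156-134079405 and Dusp1 at chr17:26508473-26508722, with TGACGTCA, which reads alike on both strands, in capitals.
Btg2: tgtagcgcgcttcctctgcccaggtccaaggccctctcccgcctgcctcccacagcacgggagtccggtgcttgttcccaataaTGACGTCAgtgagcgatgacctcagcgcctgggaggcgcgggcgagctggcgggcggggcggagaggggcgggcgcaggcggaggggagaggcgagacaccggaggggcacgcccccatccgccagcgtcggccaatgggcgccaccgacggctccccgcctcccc
Dusp1: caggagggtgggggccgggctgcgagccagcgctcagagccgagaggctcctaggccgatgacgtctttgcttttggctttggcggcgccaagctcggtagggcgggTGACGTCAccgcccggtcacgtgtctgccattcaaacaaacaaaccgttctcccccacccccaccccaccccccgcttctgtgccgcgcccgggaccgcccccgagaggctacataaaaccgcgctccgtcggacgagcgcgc
The match begins 166 bases before the start in Btg2 and 143 bases in Dusp1. The element was found in 3 of 18 immediate early genes with a promoter sequence (16.7%), the third being Ppp1r15a, in 1 of 15 cell cycle genes, in 0 of 13 naive and 0 of 13 interferon genes, and in 1.77% of all genes. Other letters searched on both strands, with no overlap between them counted, were the CArG box, bound by serum response factor, the NF-kB site, TTTCCCGC and TTTGGCGC (E2F), CCACACCC (KLF) and TTCCNGGAA (STAT). In the immediate early list they were found in 1, 1, 0, 1, 0 and 0 of 18 genes, and in the naive list in 2 of 13 for the CArG box and 2 of 13 for CCACACCC, against 1.62% and 3.68% of all genes.

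Cell cycle genes summed to a higher level in LOY T cells, although fewer LOY cells had a UMI of them. Their sum was 2540 CPM in LOY and 1377 CPM in control, a ratio of 1.84 (1.67 to 2.03), with 6 of 13 measured members past 1.5-fold higher, 0 lower and a median of 0.50. Top2a, a topoisomerase of dividing cells, had 173 CPM in LOY and 40.2 CPM in control, and was seen in 12.8% and 5.36% of T cells. Cells with 2 or more UMIs of 9 proliferation genes numbered 12 of 86 in LOY, 5 of which were over 1% myeloid transcripts, and 11 of 261 in control, 0 of which were. The 5 cells richest in cell cycle transcripts held 52.3% of the list's UMIs in LOY and 34.4% in control. A UMI of the list was seen in 73.3% of LOY and 92.7% of control T cells, at the unequal depths given above, and the median cell had 0.0749% and 0.0807% of its UMIs from these genes. The ratio of the sum was 0.983 (0.590 to 1.55) in naive-only and 1.22 (1.06 to 1.42) in effector-only cells. Without the myeloid-transcript cells the ratio was 1.56 (1.38 to 1.76). The list was also higher in NK cells (1.86) and macrophages (1.64) and lower in B cells (0.735).

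Transcripts of other cell types were measured in the T cells. Macrophage transcripts summed to 9107 CPM in LOY and 3929 CPM in control, a ratio of 2.32 (2.20 to 2.44), with 7 of 14 measured members past 1.5-fold higher and 0 lower. The 5 cells with the most held 52.2% of them in LOY and 42.9% in control, and the median cell had 0.121% and 0.0972% of its UMIs from these genes. Of the defining markers, Csf1r had 31.1 CPM in LOY and 29.7 CPM in control, and Adgre1 had 0 and 6.12 CPM. Their part in the gene differences was not tested beyond the values without the 13 and 13 cells given here. NK cell transcripts had a ratio of 1.55 (1.38 to 1.73), which was 0.866 (0.705 to 1.05) without the myeloid-transcript cells. Tyrobp, a signalling adaptor that macrophages express as well, had 781 and 352 CPM, while Ncr1, a defining NK receptor, had 4.44 and 46.3 CPM. B cell transcripts had 111 and 104 CPM, nearly all Ighm. Neutrophil, cardiomyocyte and erythroid transcripts had 0, 2 and 0 UMIs in LOY and 19, 6 and 4 UMIs in control, and fibroblast and endothelial transcripts had 57.7 and 45.4 CPM, of which Pecam1 gave 48.8 and 41.9 CPM, a gene which leukocytes also express.

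The counts of the remaining lists stand beside 5.0% of all measured genes past 1.5-fold higher and 5.43% lower. The coreceptor genes summed to a ratio of 1.07 (0.847 to 1.34), with 0 of 3 past 1.5-fold. Regulatory T cell genes summed to a ratio of 1.29 (1.09 to 1.52) with 2 of 8 measured members past 1.5-fold higher, Tnfrsf4 and Capg, an actin-capping protein of many leukocytes. The median log2 ratio of the 8 was -0.07. The summed ratio of this list was 1.54 in B cells, 0.757 in NK cells and 2.14 in macrophages. Helper lineage genes had a ratio of 0.710 (0.551 to 0.904), with Ifng as the 1 of 6 measured members past 1.5-fold lower. Genes of gamma-delta T cells had 0.588 (0.399 to 0.840), and Tcrg-C2 and Trdc were past 1.5-fold lower among 5 measured. Genes of survival and apoptosis had 0.878 (0.799 to 0.963) with 1 of 13 measured members past 1.5-fold higher, Bad, a share near that over all measured genes. Cytokines and secreted factors had 0.986 (0.866 to 1.12), with Spp1 (osteopontin) higher and Ifng and Tnfsf8 (CD30 ligand) lower among 10 measured. Inhibitory receptors and exhaustion genes had 1.09 (0.847 to 1.39), with 1 of 5 measured members past 1.5-fold higher, Cd160. Genes of innate-like T cells, a list that holds Tyrobp and Fcer1g, had 1.27 (1.13 to 1.41), which was 0.642 (0.523 to 0.781) without the myeloid-transcript cells. Genes of type 2 innate lymphoid cells had 0.623 (0.394 to 0.946) with 0 of 2 measured members past 1.5-fold.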

How the data were processed

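Droplet single-cell RNA sequencing (10x Genomics 3' kit) was run on sorted cardiac leukocytes, 1 library per group, with about 8000 cells used for each, per the labels' protocols. The authors deposited unnormalized UMI counts, a gene by barcode matrix for each library, made with Cell Ranger 5.0.0 on mm10 per the submitters' processing notes. No source used here states the barcode filtering or annotation release. A 3' kit counts transcripts near their end.

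Members and gene lists (29) were chosen with earlier results of these data known. UMIs were summed over T cells and divided by their total (CPM). Ratios add 50 CPM, and a gene was measured at 20 UMIs over both libraries. Thinning drew UMIs without replacement (seeded). Shares have Clopper-Pearson, sums Poisson and ratios exact conditional intervals (scipy 1.17.1, numpy 2.4.6, pandas 2.3.3, Python 3.11.15). Possible doublets were removed only by the rule's Cd79 and C1q limits; removing the highest scrublet scores (scanpy 1.11.5) was an alternative. Steps were tested on simulated data. Named genes had 100 CPM in the higher library and 30 UMIs, without ribosomal-protein, mitochondrial, haemoglobin, immunoglobulin, T cell receptor segment genes and models without a name. They were the 10 highest and 10 lowest ratios, the 8 at each end within the control library for coreceptor and state, the 2 highest and 2 lowest of each list, and the receptor, coreceptor, Y-linked, naive, effector, regulatory and helper genes. Isg15, Ifit1, B2m, Dusp1 and markers of other cells were added after their values were seen. Promoters are RefSeq's. Some members of these lists are not reported here by name.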

Additional observations from a re-analysis of the deposited data

Results flagged for a closer look

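The summed level of the heat shock and chaperone list stood on opposite sides in 2 classes of T cells. In CD8-only cells its summed level in LOY was 1.11 times the control level (1.02 to 1.20; 31 LOY and 86 control cells), and in cells without a coreceptor UMI it was 0.847 times (0.777 to 0.921; 50 and 140 cells). Of 11 measured members, 7 were within 1.5-fold in the CD8-only cells and 10 in the cells without a coreceptor UMI. With 1 library per group the difference between the classes was not tested.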

How the results depend on the processing

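No paired analysis was possible because each group had 1 library. All values rest on 2 pooled libraries, and LOY T cells were few and shallow, so a gene at 0 in LOY may lie at up to 13.3 CPM. Of the alternative values for the main results, 128 stayed within the counting interval (gene counts, within 1.5 times) and 26 did not; the cause was not tested. In every alternative that gave them, the T cell share, the naive-only share and the summed naive list were lower in LOY. The effector list had no stable side: its ratio was 0.902 at 5% mitochondrial UMIs, 0.868 at 0 C1q UMIs, 1.12 at a CD3 sum of 1 and with scrublet scores removed, 1.11 at a CD3 sum of 3, 1.23 without NK markers, 1.21 as a mean over cells and 1.20 without myeloid-transcript cells, where the naive list had 0.671. The T cell share was 0.960% in LOY and 2.13% in control at 0 C1q UMIs, and 3.23% in control at 5% mitochondrial UMIs. CD4-only cells were 0% of LOY T cells at 0 C1q UMIs and 0.538% of control T cells at 5% mitochondrial UMIs. Without NK markers 28.1% of control T cells were naive only and 29.9% effector only. Without thinning the CD8-only share was 36% in LOY and 33.0% in control, with 13.0% CD4-only and 31.4% naive-only control cells; at 1000 UMIs it was 24.4% in LOY and 21.8% in control, with 29.1% naive-only control cells. With 10 CPM added, 825 genes were higher and 1322 lower; without mitochondrial, ribosomal-protein and haemoglobin genes 650 were lower. Reversed values were those of the innate-like list (0.906 at 0 C1q UMIs, 0.916 as a mean over cells, 0.642 without myeloid-transcript cells), the type 2 innate lymphoid list (1.01 at 0 C1q UMIs), NK cell transcripts (0.866 without myeloid-transcript cells) and Ccl1 (log2 ratio 0.40 at 0 C1q UMIs).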
